A study of Mus musculus with 4 samples.

Results

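The DNA replication and S-phase genes described here are 49 genes that build, feed and police the replication fork, and their rows were taken from the deposited gene count table by symbol. The list of symbols was drawn up with earlier results of these data known. The table held 54532 genes. All 49 were found in it, and all 49 were among the 13233 genes with a mean of at least 1 CPM (counts scaled to library size) over the libraries, the genes called tested below. The counts came from RNA-sequencing of C3H10T1/2 cells, a mouse line derived from C3H embryos that serves as a mesenchymal stem cell model. The study asked how loss of DNMT1, the maintenance DNA methyltransferase, alters gene expression before and during early osteoblast (OB) differentiation. The library "control" received control siRNA and no induction, and "siDNMT1" received DNMT1 siRNA and no induction. The library "OB" received control siRNA and OB induction, and "siDNMT1_OB" received DNMT1 siRNA and OB induction. Transfection lasted 48 h in every case. Induction lasted 3 days in medium with 50 µM ascorbic acid, 10 mM glycerophosphate and 0.001 µM dexamethasone. Which DNMT1 siRNA was used is not stated in the labels, and all cells came from the same line.

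Before S phase, the origin recognition complex, CDC6 and CDT1 load the ring-shaped MCM2-7 helicase onto DNA, a step called licensing that geminin blocks once replication starts. CDC45 and the GINS complex then turn the loaded ring into the active CMG helicase, and the polymerases, the PCNA clamp and the maturation enzymes follow it. Most of these genes are textbook targets of E2F transcription factors, which RB family proteins hold in check in cells that have left the cell cycle, and osteogenic differentiation is generally coupled to slower proliferation.

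Each group held 1 library, with 27367792, 25608719, 22296046 and 26912489 counts in control, siDNMT1, OB and siDNMT1_OB. There was no replicate, so no comparison between 2 libraries has a test across samples, and the 95% intervals given below cover the counting of reads only. Dnmt1 itself had 7195, 3375, 1931 and 2492 reads in that order of libraries. Its log2 fold change was -1.01 without induction and 0.13 with it, so in the library labelled siDNMT1_OB the target gene was no lower than in OB, and every direction drawn from that library carries this limit. Wording such as "after DNMT1 siRNA" follows the labels of the libraries. The mesenchymal markers summed to 27988 to 34426 CPM. Of these 10 markers, Pdgfra had the highest log2 fold change in OB against control, 2.47, where the median was 0.35 and 3 were negative. It had the lowest in siDNMT1_OB against OB, -0.77, where the median was -0.06 and 4 were positive. The markers of blood, endothelium and epithelium summed to 0.663 to 1.47 CPM, with Epcam and Krt18 at 0 in all libraries. Of the osteoblast markers, Runx2 had 2049, 2459, 1644 and 2327 reads, whereas Alpl, which encodes alkaline phosphatase, had 0, 1, 2 and 0 and Bglap 2, 1, 1 and 3. Sp7 had 5, 1, 8 and 4 reads and Ibsp 1, 3, 6 and 17, the latter more in the induced libraries but at few reads. Spp1, which encodes osteopontin, was abundant with 14862, 5270, 4226 and 7261 reads, and Dmp1 had 80, 62, 8 and 37, and both were highest in control. Of the 7 markers, Alpl, Bglap, Sp7 and Ibsp were thus at or near 0 in all libraries. Of the 49 genes, 18 share exon bases with another annotated gene, and counts of overlapping genes are uncertain because the strand setting is not known. In bulk RNA, fewer cells in S phase and less of these RNAs per cell cannot be told apart.

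Promoter sequences are shown for the E2F site. Most of the listed genes are textbook E2F targets, so a high share of sites follows from the choice of genes and is no independent finding. RefSeq promoters (GRCm38.p6, 250 bases before to 50 after the annotated start) were at hand for 37 of the 49 genes. An 8-base E2F site (TTTGGCGC, TTTCGCGC, TTTCCCGC or TTTGCCGC, either strand) was present in 15 of the 37, or 40.5%. The same words were found in 4.69% of the 9590 tested genes with a RefSeq promoter and in 2.61% of all 27025 genes with one. A gene with several promoters was counted as a match if any of them matched. The 7-base core, the same words without their leading T and so contained in every 8-base site, was in 67.6% of the members' promoters and in 19.8% of those of tested genes. The CCAAT box was in 62.2% against 43.5%, and the CHR element of late cell cycle genes (TTTGAA or TTCGAA) in 21.6% against 16.2%. Over all genes with a RefSeq promoter the shares were 10.9% for the core, 41.1% for the CCAAT box and 21.7% for the CHR element. The CHR share of the 37 members was thus no higher than that background. A match is a run of letters and not a measured binding site. The windows below hold sites upstream of the RefSeq start, on the gene's strand with the 8-base site in capitals, for licensing and helicase genes together with a polymerase and a clamp loader gene.
Orc1, chr4:108579416-108579445: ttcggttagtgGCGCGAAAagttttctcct
Cdc6, chr11:98908002-98908031: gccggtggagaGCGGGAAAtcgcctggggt
Mcm5, chr8:75109345-75109374: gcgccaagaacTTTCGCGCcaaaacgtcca
Mcm6, chr1:128359797-128359826: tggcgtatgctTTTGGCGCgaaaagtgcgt
Mcm6, chr1:128359734-128359763: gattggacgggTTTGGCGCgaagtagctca
Mcm7, chr5:138172030-138172059: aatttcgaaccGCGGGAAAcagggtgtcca
Gins3, chr8:95633507-95633536: gcgagtgcggcGCGGGAAAgcgagtttgaa
Pola1, chrX:93632275-93632304: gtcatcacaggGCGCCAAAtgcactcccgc
Rfc3, chr5:151651209-151651238: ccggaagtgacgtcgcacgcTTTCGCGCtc
Mcm6, Mcm7, Pola1 and Rfc3 lie on the minus strand. For Cdc6, Gins3, Mcm7, Orc1 and Rfc3 the gene model of the count table begins further upstream than the RefSeq start, so those windows touch or overlap the gene as counted.

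The longer upstream regions of Mcm5 and Mcm6 are given as examples of E2F words and CCAAT boxes in the same helicase promoter. They were picked for holding both and need not be typical, as the promoters of Mcm2, Mcm10 and Cdc45 had no 8-base site. The capitals mark both, and where E2F words on the 2 strands overlap they form a single block.
Mcm5, chr8:75109259-75109508, plus strand: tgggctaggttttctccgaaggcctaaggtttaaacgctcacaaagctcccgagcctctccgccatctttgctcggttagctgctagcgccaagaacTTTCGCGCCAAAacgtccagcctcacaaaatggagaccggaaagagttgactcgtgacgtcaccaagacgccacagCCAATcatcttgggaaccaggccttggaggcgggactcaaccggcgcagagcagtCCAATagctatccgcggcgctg
Mcm6, chr1:128359706-128359955, minus strand: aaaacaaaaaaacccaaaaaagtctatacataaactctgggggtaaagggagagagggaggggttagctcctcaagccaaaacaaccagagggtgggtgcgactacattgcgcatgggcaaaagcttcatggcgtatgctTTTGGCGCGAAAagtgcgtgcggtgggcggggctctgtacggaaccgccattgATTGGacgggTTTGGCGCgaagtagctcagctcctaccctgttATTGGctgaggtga
The medians of members with and without an 8-base site differed little beside the range of the members. For OB against control the median log2 fold change was -1.94 over the 15 with a site and -1.79 over the 22 without, and for siDNMT1_OB against OB it was 0.81 and 0.70. It was -0.34 in both sets for siDNMT1 against control, and -0.88 and -0.69 for siDNMT1_OB against siDNMT1.

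Nearly all of the genes placed the libraries in the same order. In 46 of 49 genes the level was highest in control, next in siDNMT1, then in siDNMT1_OB and lowest in OB, an order found in 15.3% of tested genes. Summed over the 49 genes the level was 3541, 2706, 1610 and 1016 CPM in that order of libraries, which is 0.351%, 0.271%, 0.160% and 0.103% of all counts. Induction after control siRNA left a median of 26.8% of the control level, whereas induction after DNMT1 siRNA left a median of 59.7% of the siDNMT1 level. The exceptions to the order were Mcm7, Gins4 and Brca1, which are described with their complexes.

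**Figure D1:**
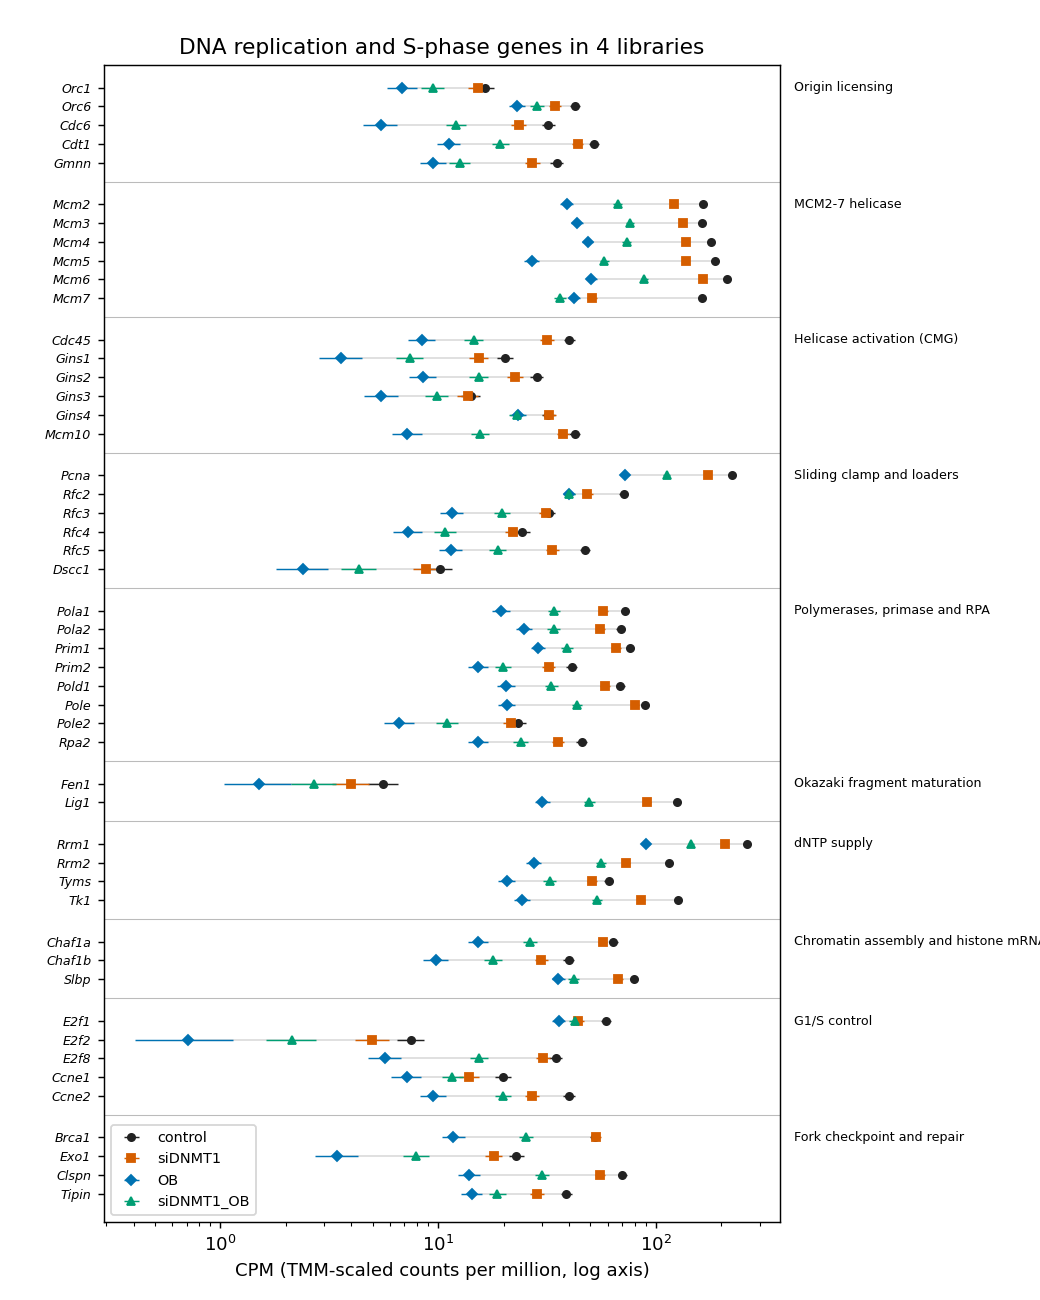
Level of each of the 49 genes in CPM (log axis) in the 4 libraries, grouped by role, with exact 95% Poisson intervals of counting. In most genes the OB library lies at the left, the library labelled siDNMT1_OB next to it and control at the right, and Gins4 shows the least separation.

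OB induction after control siRNA gave the widest separation. All 49 genes were lower in OB than in control, where 49.3% of tested genes were lower, and 45 were lower by at least 2-fold, where 7.1% of tested genes were. The median log2 fold change of the 49 was -1.89 against 0.01 over all tested genes, and all 49 counting intervals lay below 0, as did those of 37.3% of tested genes. The values ran from -3.27 for E2f2 to -0.46 for Gins4, and Rfc2, E2f1, Orc6 and Gins4 were the 4 genes that stayed within 2-fold. After DNMT1 siRNA the same induction gave a median of -0.74. Against siDNMT1, all 49 genes were lower in the library labelled siDNMT1_OB (49.9% of tested genes), 12 of them by at least 2-fold (2.71% of tested genes). Across the 49 genes the OB effects after either siRNA, which come from separate pairs of libraries, had Pearson's r of 0.749 and Spearman's rho of 0.716. Over all tested genes r was 0.854, and genes are not independent replicates.

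DNMT1 siRNA was associated with opposite signs in the untreated and induced pairs. Without induction 47 of 49 genes were lower in siDNMT1 than in control, where 50.3% of tested genes were lower, but the shifts were small, with a median log2 fold change of -0.34. Mcm7 alone was lower by 2-fold or more, which is 1 of 49 genes beside 1.37% of tested genes and so no departure from the background. With induction 47 of 49 genes were higher in the library labelled siDNMT1_OB against OB (52.2% of tested genes), with a median of 0.78, and 13 were higher by at least 2-fold (2.36% of tested genes). The 47 include Rfc2 at 0.00. The 13 were Cdc6, Mcm5, Gins1, Mcm10, Pole, Rrm2, Tk1, E2f2, E2f8, Ccne2, Brca1, Exo1 and Clspn. The sign was negative in the untreated and positive in the induced pair for 46 of 49 genes, against 24.6% of tested genes. The counting interval lay below 0 for 41 genes in the untreated pair (26.8% of tested genes) and above 0 for 46 in the induced pair (27.6%). For 39 genes it did both, against 7.9% of tested genes. Across the 49 genes the siDNMT1 effects in the 2 pairs, which share no library, had r of 0.218 and rho of -0.05, and over all tested genes r was 0.254. Without Mcm7 r was -0.149 over 48 genes, so the sign of r rests on that gene.

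**Figure D2:**
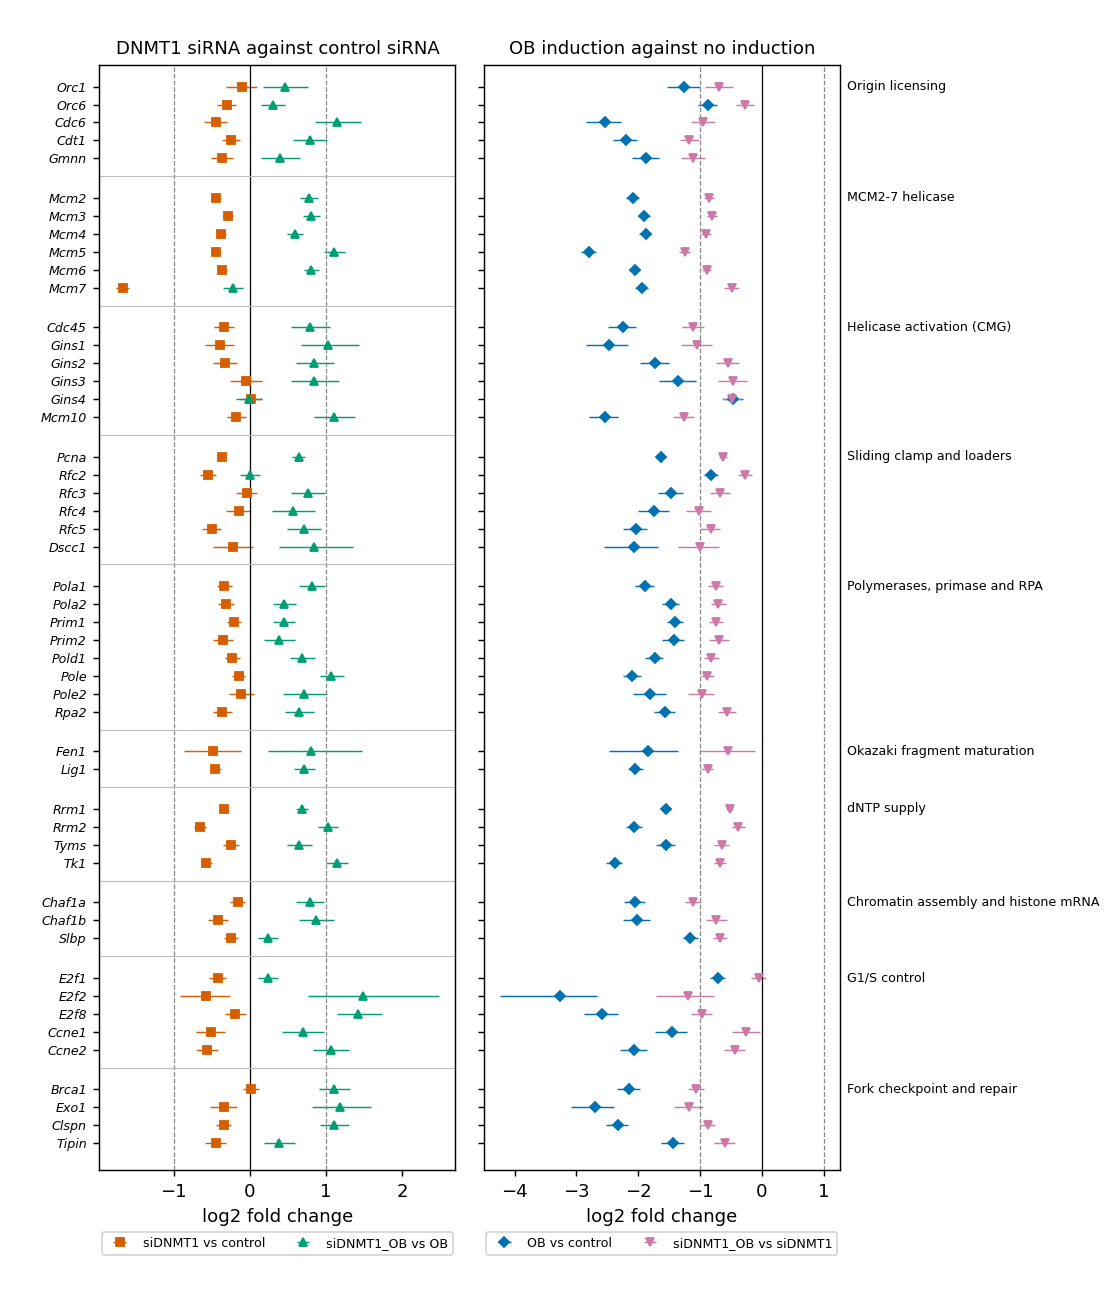
log2 fold changes of the 49 genes with exact 95% counting intervals, for DNMT1 siRNA against control siRNA on the left and OB induction against no induction on the right; the solid line is 0 and dashed lines mark 2-fold. On the left, points of siDNMT1 vs control mostly sit just below 0 and points of siDNMT1_OB vs OB above it, and on the right all points are below 0.

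The difference between the siDNMT1 effects, induced minus untreated, used all 4 libraries. It was positive for 48 of 49 genes (50.6% of tested genes), with a median of 1.09 on the log2 scale against 0.00 over all tested genes, and reached at least 1 in 30 genes, where 3.27% of tested genes did. The same number describes how much less the induction lowered a gene after DNMT1 siRNA than after control siRNA, so both readings are a single measurement. It was highest for E2f2 (2.07), Tk1 (1.71), Rrm2 (1.68), E2f8 (1.62) and Ccne2 (1.62), and lowest for Gins4 (-0.03), Slbp (0.48), Rfc2 (0.55) and Orc1 (0.57).

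**Figure D3:**
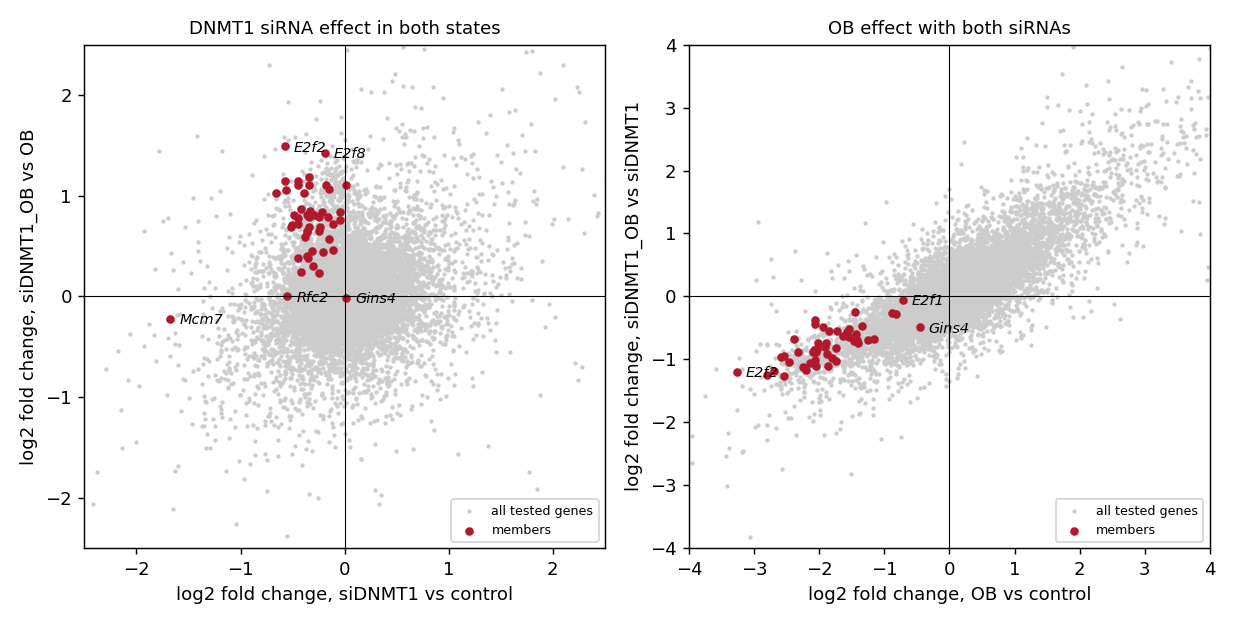
log2 fold change of DNMT1 siRNA with induction against that without it (left) and of OB induction after DNMT1 siRNA against that after control siRNA (right), with all tested genes in grey and the 49 genes in colour; 28 and 89 genes outside the axis limits of 2.5 and 4 are not drawn. The 49 genes gather at the upper left of the left panel and at the lower left of the right panel.

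**Figure D4:**
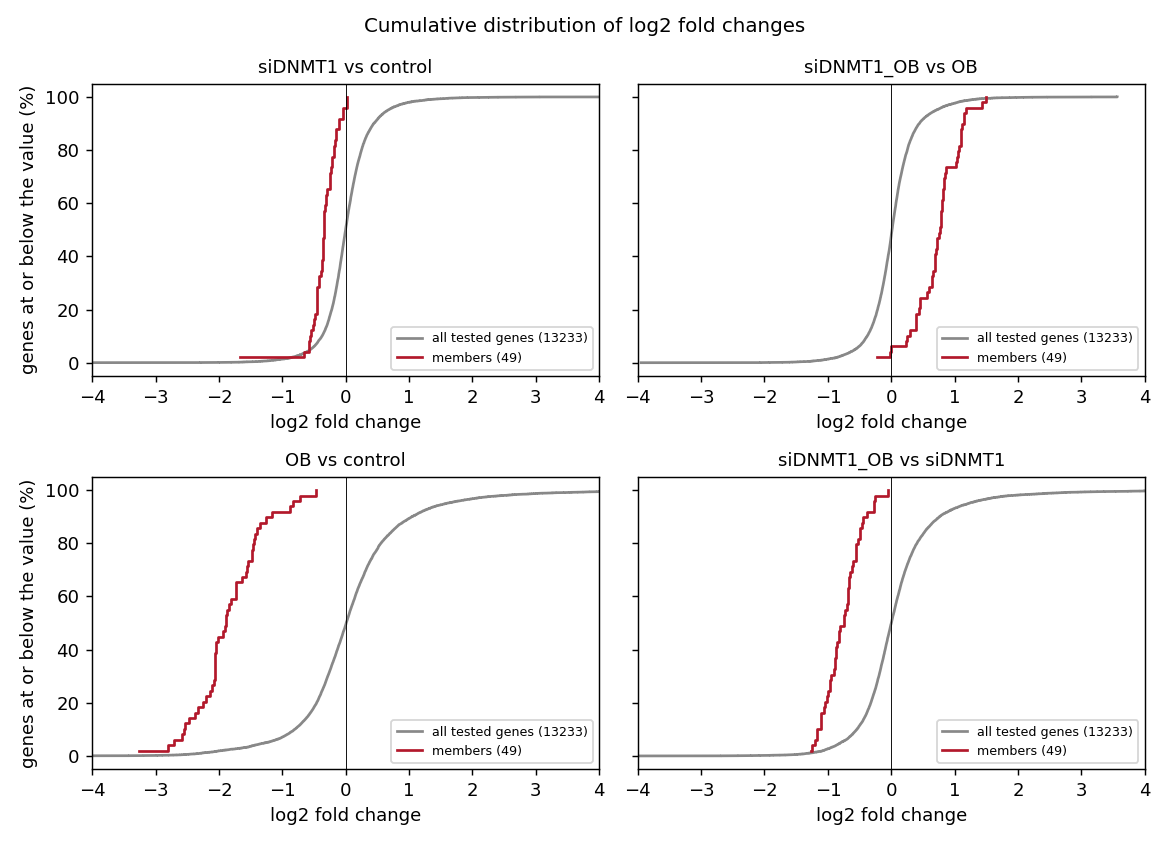
Cumulative share of genes (vertical axis, percent) at or below each log2 fold change (horizontal axis) for the 49 genes and all tested genes, in the 4 comparisons. The curve of the 49 genes is shifted left of all tested genes in OB vs control, where its median is -1.89, and right of them in siDNMT1_OB vs OB, where its median is 0.78.

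A quasi-likelihood fit in edgeR with siRNA and induction as additive factors gave the only test available, and its single residual degree of freedom is the difference between states itself. Its induction term was lower at an adjusted p under 0.05 (Benjamini-Hochberg over all tested genes) for 37 of the 49 genes, or 75.5%, against 9.09% of tested genes. Its siDNMT1 term called none of the 49 in either direction and none of the 13233 tested genes. Mcm7 had an unadjusted p = 0.0372 and an adjusted p = 0.531 in this edgeR term. It was the only one of the 49 under an unadjusted 0.05, beside 602 tested genes higher and 546 lower.

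The licensing factors set whether an origin can be used. Cdc6, the ATPase that recruits the helicase loader, had 870, 601, 123 and 324 reads in control, siDNMT1, OB and siDNMT1_OB. It had the lowest OB value of this set, with a log2 fold change of -2.54 (interval -2.84 to -2.29), and was the only licensing gene past 2-fold in the induced pair, at 1.14 (0.85 to 1.47). Cdt1, its partner in helicase loading, had 1407, 1119, 253 and 517 reads, and Gmnn, which encodes the CDT1 inhibitor geminin, had 949, 695, 215 and 336. The loader and its inhibitor were thus both lowest in OB, at -2.21 and -1.87 against control, and both lower by over 2-fold after DNMT1 siRNA as well, at -1.17 and -1.11. The origin recognition genes Orc1 and Orc6 were less far apart between libraries, and 10.8% and 6.93% of their exon bases overlap Gm12743 and Vps35. Orc1 had 447, 391, 155 and 253 reads and Orc6 1154, 882, 523 and 764, with log2 fold changes of 0.46 and 0.30 in the induced pair. In OB against control Orc6 lay at -0.88 (interval -1.03 to -0.73).

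The MCM2-7 genes encode the 6 different subunits of a ring that is loaded as a unit, so their proportions are of interest beside their levels. All but Mcm7 had the same signs in every comparison. Mcm2 had 4480, 3100, 880 and 1785 reads, Mcm3 4425, 3413, 983 and 2040, and Mcm6 5732, 4209, 1144 and 2371. Their log2 fold changes were -0.45, -0.29 and -0.36 without induction and 0.78, 0.81 and 0.81 with it, and Mcm4, with 4867, 3531, 1099 and 1965 reads, gave -0.38 and 0.59. Mcm5 had the widest range of these, with 5095, 3530, 608 and 1553 reads. It lay at -2.80 (interval -2.93 to -2.68) in OB against control and at 1.11 (0.97 to 1.25) in siDNMT1_OB against OB.

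Mcm7 departed from the rest of the ring. Its reads numbered 4403, 1302, 955 and 968 in control, siDNMT1, OB and siDNMT1_OB, which is 162, 50.8, 42.2 and 36.2 CPM. The 3 treated libraries thus lay close together and far below control. In the untreated pair it lay at -1.67 (interval -1.77 to -1.59), the 29th lowest of 13233 tested genes, while the next lowest of the 49 genes was Rrm2 at -0.66. In the induced pair Mcm7 was at -0.22 (-0.35 to -0.09), the only one of the 49 whose interval lay below 0 there. Its OB value of -1.94 lay among those of Mcm2, Mcm3, Mcm4 and Mcm6, which ran from -2.08 to -1.88, but after DNMT1 siRNA the induction value was -0.49. Mcm7 (ENSMUSG00000029730) spans chr5:138164583-138172422 on the minus strand of mm10. Of its exon bases 7.25% overlap Ap4m1 and 1.45% overlap Cops6, both on the other strand, and whether counting used strand is not given in the sources used here. Mir25 and Mir93, on the same strand, overlap 1.90% and 1.99% of the exon bases of Mcm7 and had 0 reads in every library. Ap4m1 had 635, 765, 559 and 664 reads and Cops6 3356, 2993, 2346 and 2787, and the part of shared reads in the Mcm7 counts was not tested.

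Per kilobase of exon, the 6 subunits can be set side by side. Of the summed per-length level of the ring, Mcm7 made up 14.9% and 6.66% in the untreated libraries control and siDNMT1, and 16.5% and 8.88% in the induced libraries OB and siDNMT1_OB. It was thus the fifth of the 6 in control and the last in both libraries labelled with DNMT1 siRNA. Mcm5 made up 19.1%, 20.0%, 11.6% and 15.8%, so its share was lowest in OB. Mcm2 stayed between 9.64% and 10.4%, Mcm6 between 18.4% and 20.6%, Mcm3 between 17.7% and 22.1% and Mcm4 between 20.3% and 23.4%. The summed level of the ring was 1069, 745, 251 and 399 CPM, and without replicates no error between cultures can be put on these shares.

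**Figure D5:**
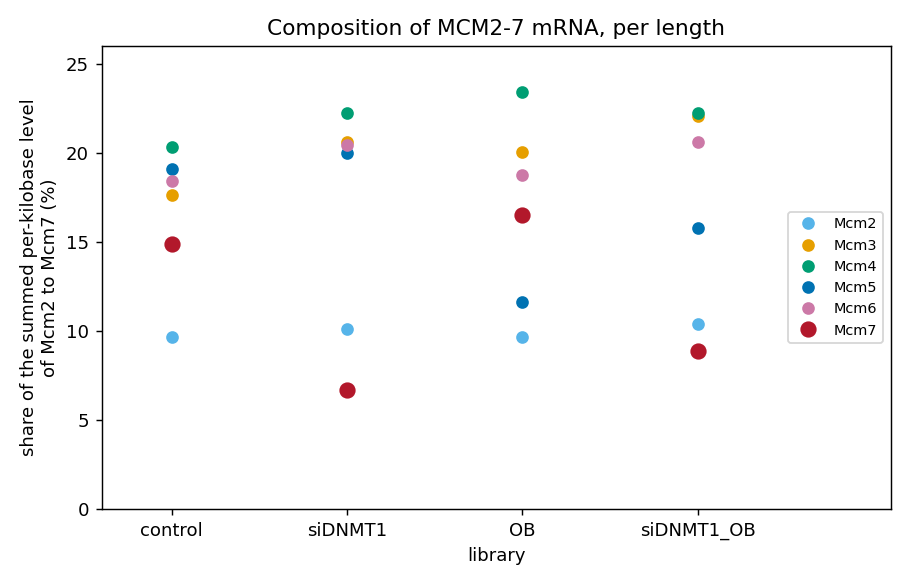
Share of each of the 6 MCM2-7 genes in their summed per-kilobase level (percent, shown as points on an axis that starts at 0) in the 4 libraries. Mcm7 takes 14.9% and 16.5% in the libraries labelled control and OB and 6.66% and 8.88% in those labelled siDNMT1 and siDNMT1_OB, while Mcm5 is lowest in OB at 11.6%.

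Among the genes that activate the helicase, Mcm10, which encodes an origin firing factor, had 1152, 960, 163 and 417 reads. It lay at -2.55 (interval -2.80 to -2.32) in OB against control and at 1.10 (0.85 to 1.38) in the induced pair, the highest of this set. Its value after DNMT1 siRNA, -1.26, was the lowest of the 49 genes in siDNMT1_OB against siDNMT1. Cdc45 had 1088, 811, 190 and 390 reads and values of -2.24 and 0.79. The GINS subunits did not move as a unit. Gins1 had 549, 394, 81 and 198 reads, Gins2 769, 577, 192 and 411, and Gins3 383, 350, 124 and 264, with OB values of -2.47, -1.73 and -1.35. Gins4 had 869, 829, 526 and 616 reads and log2 fold changes of 0.01 (-0.12 to 0.15) without induction and -0.01 (-0.19 to 0.16) with it. It kept 72.6% of its level after induction with control siRNA and 71.1% with DNMT1 siRNA, so that the siRNA made no difference detectable at this depth. Of the exon bases of Gins2, 67.3% overlap Gse1 on the other strand, so its counts are uncertain.

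The sliding clamp Pcna, which tethers polymerases to DNA, had the highest level per length of the 49 genes, at 92.7 CPM per kilobase in control, ahead of Mcm4 at 50.0. It had 6037, 4427, 1624 and 3000 reads and log2 fold changes of -0.37, 0.64, -1.63 and -0.62 in siDNMT1 against control, siDNMT1_OB against OB, OB against control and siDNMT1_OB against siDNMT1. A processed copy, Pcna-ps2, had 1994, 1467, 453 and 948 reads, and reads shared between the copies cannot be assigned with certainty. The clamp loader subunits differed among themselves. Rfc2 had 1927, 1241, 905 and 1072 reads, a value of 0.00 (-0.13 to 0.13) in the induced pair and only -0.83 in OB, and 15.1% of its exon bases overlap Lat2. The sign of that value turned with total count or upper quartile scaling. Rfc3, Rfc4 and Rfc5 lay at 0.76, 0.57 and 0.71 in the induced pair and at -1.47, -1.74 and -2.04 in OB against control. Of the exon bases of Rfc4, 12.7% overlap Eif4a2, and of those of Rfc5, 10.7% overlap Wsb2. Dscc1, a subunit of the alternative loader that acts with sister chromatid cohesion, had 278, 225, 54 and 116 reads and, at 0.84 (0.38 to 1.35), the highest value of this set in the induced pair.

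Replicative polymerases divide the leading and lagging strands. Pole, the catalytic subunit of the leading strand polymerase epsilon, had 2413, 2057, 467 and 1163 reads and was the only one of these 8 genes past 2-fold in the induced pair, at 1.07 (0.92 to 1.23). Its small partner Pole2 lay at 0.72 and the catalytic subunit of the lagging strand polymerase delta, Pold1, at 0.69. Pola1, the catalytic subunit of polymerase alpha, had 1963, 1466, 439 and 915 reads and lay at 0.81 (0.65 to 0.98). The other subunits of the polymerase alpha-primase complex were lower, at 0.45 for Pola2, 0.44 for Prim1 and 0.39 for Prim2, and the counting intervals of these 3 did not reach that of Pola1. Prim2, the lowest of this set, had 1116, 825, 345 and 534 reads. Rpa2, which coats single-stranded DNA, lay at 0.65. In OB against control the 8 genes ran from -2.10 for Pole to -1.40 for Prim1, and in the untreated pair from -0.36 to -0.11.

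Okazaki fragments are trimmed by FEN1 and sealed by DNA ligase I. Lig1 had 3387, 2337, 682 and 1326 reads, and its log2 fold changes were -0.45 (-0.53 to -0.38) without induction and 0.71 (0.58 to 0.85) with it. Fen1 had 152, 102, 34 and 72 reads and wide intervals, with 0.81 (0.23 to 1.47) in the induced pair. As 78.8% of the exon bases of Fen1 overlap Gm10143 on the other strand, its counts are uncertain.

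The enzymes of deoxynucleotide supply included some of the largest siDNMT1 differences. Tk1, the thymidine kinase of the salvage pathway, had 3437, 2185, 548 and 1434 reads, and its values were -0.57 (-0.65 to -0.49) and 1.14 (1.00 to 1.29) in the untreated and induced pairs. Rrm2, the regulated small subunit of ribonucleotide reductase, had 3125, 1871, 623 and 1503 reads and values of -0.66 (-0.74 to -0.57) and 1.03 (0.89 to 1.16). Rrm1, the large subunit, had 7116, 5309, 2030 and 3864 reads and lay at -0.34 and 0.69, and Tyms, thymidylate synthase, had 1648, 1309, 468 and 871 and lay at -0.25 and 0.65. Within the reductase the small subunit thus moved further than the large one in both pairs, with intervals that did not overlap. After DNMT1 siRNA, induction left 76.9% of Rrm2 and 69.7% of Rrm1, against 23.9% and 34.2% after control siRNA.

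Chromatin assembly behind the fork uses CAF-1, and histone mRNA needs the stem-loop binding protein SLBP. Chaf1a had 1727, 1459, 345 and 706 reads and Chaf1b 1080, 764, 221 and 479, with induced-pair values of 0.79 and 0.87 and OB values of -2.06 and -2.02. In these comparisons the 2 CAF-1 subunits were close, but in the untreated pair they lay at -0.16 (-0.26 to -0.06) and -0.42 (-0.55 to -0.28), and in siDNMT1_OB against siDNMT1 at -1.11 (-1.24 to -0.98) and -0.73 (-0.90 to -0.57). Of the exon bases of Chaf1a, 52.5% overlap Ubxn6 on the other strand. Slbp had 2155, 1720, 806 and 1124 reads and moved less, at 0.24 (0.11 to 0.37) in the induced pair and -1.15 in OB.

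The regulators of the G1/S step differed widely among themselves. E2f2, an activating E2F, had 203, 128, 16 and 57 reads, and its 16 reads in OB were the fewest of any of the 49 genes. In OB against control it lay at -3.27 (interval -4.24 to -2.67), the 17th lowest of 13233 tested genes, and 1.49 (0.77 to 2.49) in the induced pair, the 75th highest. At that depth these values have the widest intervals of the 49. E2f8, an atypical E2F that represses the same target genes, had 940, 778, 129 and 414 reads and lay at -2.59 and 1.43 (1.15 to 1.74), so an activator and a repressor of the family were lowest in the same library. E2f1, also an activator, had 1600, 1126, 811 and 1135 reads. In OB against control it lay at -0.72, and in siDNMT1_OB against siDNMT1 it lay at -0.05 (-0.17 to 0.07), the only one of the 49 whose interval spanned 0 there, with 96.5% of the level left. Cyclins E1 and E2 drive CDK2 at this step. Ccne2 had 1083, 692, 215 and 533 reads and lay at -0.56 and 1.06, and Ccne1 had 538, 355, 162 and 311 and lay at -0.52 and 0.69 in the untreated and induced pairs. Of the exon bases of Ccne2, 17.4% overlap Ints8.

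The fork checkpoint and repair genes had the highest median of any role in the induced pair, 1.11 over 4 genes. Exo1, an exonuclease that resects DNA ends, had 621, 462, 78 and 212 reads and lay at -2.70 in OB and at 1.18 (0.82 to 1.59) in the induced pair. Clspn, whose product claspin passes the signal from ATR to CHK1, had 1906, 1417, 314 and 804 reads and lay at 1.11. Brca1, needed for recombination repair and fork protection, had 1420, 1358, 266 and 679 reads. Its untreated value of 0.02 (-0.09 to 0.13) was, with that of Gins4, the only positive one among the 49, while its induced value was 1.10 (0.90 to 1.32). Tipin, a partner of TIMELESS at the fork, had 1054, 728, 323 and 500 reads and lay at 0.39.

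The shift was not the same in all genes of the pathway. A further 69 genes of replication, S phase and its control were all among the tested genes. They were listed for their textbook roles, but with earlier results of these data known. The list includes the CDK inhibitor genes Cdkn1a and Cdkn1b and the RB family genes Rb1, Rbl1 and Rbl2. In OB against control 62 of these 69 were lower, 35 of them by at least 2-fold, with a median of -1.07 beside -1.89 for the 49. In the induced pair 60 were higher, 7 by at least 2-fold, with a median of 0.33, and in the untreated pair 52 were lower, with a median of -0.13 and none past 2-fold. In siDNMT1_OB against siDNMT1, 62 were lower, 9 of them by at least 2-fold, with a median of -0.59. Among the 7 were Chek1 (1.28), the checkpoint kinase, E2f7 (1.17), an atypical E2F, Uhrf1 (1.11), Ticrr (1.09), an origin firing factor, Fancd2 (1.09) and the histone chaperone Asf1b (1.03). Uhrf1, whose product brings DNMT1 to hemimethylated DNA, had 5505, 4219, 934 and 2385 reads, the same order of libraries as most of the 49 genes. The 3 lowest values of the 69 genes in the induced pair belonged to Cdkn1b, Rbl2 and Rrm2b. Cdkn1b, the CDK inhibitor p27, had 4403, 3810, 4657 and 4334 reads and lay at -0.35, and Rbl2, the RB family member p130, had 1123, 1056, 1300 and 1259 and lay at -0.29. Rrm2b, the p53-regulated reductase subunit, had 448, 420, 544 and 552 reads and lay at -0.22. Each of these 3 was higher in OB than in control, by 0.34, 0.47 and 0.54. Cdkn1a, the related CDK inhibitor p21, differed from Cdkn1b, with 3865, 5188, 3970 and 7005 reads and values of 0.51 and 0.58 in the untreated and induced pairs.

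The medians of the mitosis markers had the same signs as those of the 49 genes, but lay closer to 0 in the untreated pair and further from 0 in the other comparisons. Over the 10 markers the median was -0.08 without induction and 1.03 with it, and it was -2.30 in OB against control and -1.19 in siDNMT1_OB against siDNMT1. All 10 were lower by at least 2-fold in OB against control and 9 in siDNMT1_OB against siDNMT1, and 5 of 10 were higher by at least 2-fold in the library labelled siDNMT1_OB. Mki67 had 13598, 11757, 1909 and 5034 reads and Top2a 16392, 15963, 2754 and 6506. The markers thus moved together with the 49 genes between the induced libraries, and their part in the result was not tested.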

How the data were processed

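Per the study's methods and the submitters' processing notes, the authors made poly(A) libraries with the TruSeq RNA v.2 kit, trimmed the reads with Trimmomatic, aligned them to mm10 with HISAT2 and counted them per gene with featureCounts, and the deposited values are raw read counts. Versions, strand setting and the treatment of multi-mapping reads are not given in the sources used here. No column was left without a sample (0 unmapped). The deposited table also gives exon lengths, used for per-kilobase levels.

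Counts were scaled in edgeR 4.0.16 (R 4.3.3) with TMM factors (0.991 to 1.01) over genes with a mean of at least 1 CPM. log2 fold changes are differences of log2 CPM with a prior count of 2. Intervals are exact 95% binomial intervals of the read ratio, and Poisson intervals for CPM. A gene was called past the fold at a log2 fold change of at least 1 in size. The scripts were tested on simulated counts. Reads without molecular identifiers are not independent molecules, so intervals cover counting error only.

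The 49 genes, their roles and all lists were chosen with earlier results of these data known. In each role, counts in every library were given for the genes with the highest and lowest value in siDNMT1_OB against OB and for genes whose sign was opposite to the median of the 49. Further genes were added freely. Of the other replication genes, those past the fold and the 3 highest and 3 lowest were named, except 1 that is not reported here. Alternatives were other scalings, filters, prior counts and call rules, and an additive edgeR quasi-likelihood fit. A planned search of protein sequences was not run.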

Additional observations from a re-analysis of the deposited data

Results flagged for a closer look

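For 39 of the 49 genes the log2 fold change of DNMT1 siRNA had a counting interval wholly below 0 without induction and wholly above 0 with it, so the effects had opposite signs in the 2 states. The same held for 7.9% of the 13233 tested genes. The difference, induced minus untreated, rests on 1 library a group and was not tested. Its median over the 49 genes was 1.09, and among the 39 it ran from 0.48 to 2.07. In origin licensing it was 0.61 for Orc6, 1.59 for Cdc6, 1.03 for Cdt1 and 0.76 for Gmnn. In the MCM2-7 ring it was 1.23 for Mcm2, 1.10 for Mcm3, 0.98 for Mcm4, 1.55 for Mcm5 and 1.17 for Mcm6. Among the helicase activators it was 1.13 for Cdc45, 1.43 for Gins1, 1.18 for Gins2 and 1.28 for Mcm10. For the clamp and its loaders it was 1.01 for Pcna and 1.21 for Rfc5. Among polymerase, primase and RPA genes it was 1.15 for Pola1, 0.77 for Pola2, 0.66 for Prim1, 0.74 for Prim2, 0.92 for Pold1, 1.22 for Pole and 1.01 for Rpa2. It was 1.29 for Fen1 and 1.17 for Lig1. In nucleotide supply it was 1.03 for Rrm1, 1.68 for Rrm2, 0.90 for Tyms and 1.71 for Tk1. It was 0.95 for Chaf1a, 1.28 for Chaf1b and 0.48 for Slbp. At the G1/S step it was 0.67 for E2f1, 2.07 for E2f2, 1.62 for E2f8, 1.21 for Ccne1 and 1.62 for Ccne2. In checkpoint and repair it was 1.52 for Exo1, 1.45 for Clspn and 0.84 for Tipin. Dnmt1 itself gave -1.01 without induction and 0.13 with it, and its part in these differences was not tested. The other 10 genes did not meet this description, since at least 1 of their intervals spanned 0 or, for Mcm7, both lay below it.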

How the results depend on the processing

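No paired analysis was possible because each group held 1 library and the labels give no replicate numbers, and leaving out a replicate could not be run for the same reason. Under total counts, upper quartile or median-of-ratios scaling, no filter or a mean of at least 5 CPM, and prior counts of 0.5 or 5, no median of the 49 genes changed sign and no count moved by over 1.5 times. All 980 alternative values of single genes moved by less than the spread set by their counting intervals. Of these genes only Rfc2 changed sign, in siDNMT1_OB against OB, with total count or upper quartile scaling, and its interval spanned 0. Rrm2 crossed the 2-fold line in that pair with total counts, and Dscc1 in siDNMT1_OB against siDNMT1 with upper quartile scaling or a prior count of 5. The call rule and the additive fit did move counts. With a 1.5-fold line in place of 2-fold, 2 genes in place of 1 were lower in siDNMT1 against control. In siDNMT1_OB against OB 36 in place of 13 were higher, and in siDNMT1_OB against siDNMT1 36 in place of 12 were lower. The share of all tested genes past the 1.5-fold line was not counted, so these counts lack that background. Over all tested genes the upper quartile of log2 fold changes was 0.20 in siDNMT1_OB against OB. The lower quartile was -0.25 in siDNMT1_OB against siDNMT1, and both lay within 1.5-fold. In the additive edgeR fit the siDNMT1 term called 0 of the 49 at an adjusted p under 0.05 in either direction, in place of 1 lower and 13 higher. This fit takes the difference between states as noise, and at an unadjusted p under 0.05 it called 0 higher and 1 lower. Its induction term, which covers both induction pairs, called 37 lower, in place of 45 in OB against control and 12 in siDNMT1_OB against siDNMT1. Depth limits E2f2 (16 reads in OB), Fen1 (34) and Dscc1 (54) most, and with 1 library a group no value carries an error between cultures.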
